A study of Danio rerio with 18 samples.

Results

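Regenerating zebrafish ventricles were set beside ventricles in which an oncogene had been switched on. The first group held 3 libraries of ventricles collected on day 7 after cryoinjury (7 dpci), in which part of the ventricle is frozen and later regrows as muscle. The second held 3 libraries of uninjured ventricles that expressed UAS:GFP-HRAS, the oncogene HRAS joined to green fluorescent protein, and are called HRAS DMSO. These 6 libraries were all that the labels put in these 2 groups, out of 15 libraries with counts and 18 samples in the labels. The labels give the injured fish the strain cmcl2:Gal4-ERT2, a driver line in which a tamoxifen-inducible Gal4 is made in cardiomyocytes, and no treatment. The HRAS fish carried the same driver with UAS:GFP-HRAS and received 4 overnight pulses of 2.5 uM 4-hydroxytamoxifen (4-OHT) and 0.05% DMSO, the drug vehicle, over 16 days. Every group with counts therefore carried the driver, while the injured fish had neither 4-OHT nor DMSO nor a UAS transgene. The counts of the injured hearts came from a separate deposited table. Table, strain, drug exposure and injury differ together between the groups and cannot be told apart. The 3 libraries of the UAS:RFP line given 4-OHT and DMSO in the same way (RFP DMSO, with a red fluorescent protein in place of HRAS) are quoted as levels for context. The 3 uninjured driver samples were not analysed here. The title of the series sets oncogene-driven cardiac neoplasia beside heart regeneration, and the comparison asks where the transcriptomes of the 2 states part.

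The labels do not say whether a library came from 1 animal or a pool. The p-values therefore measure a spread between libraries, which may be technical. It was estimated over all 15 libraries with counts, not these 6 alone. Those 15 included 3 HRAS and 3 RFP libraries called HRAS rapamycin and RFP rapamycin. Their fish had the same 4-OHT pulses with 0.5 uM rapamycin over 16 days. The HRAS rapamycin libraries were uneven, at 44.5, 32.8 and -11.9 on the leading principal component described below. Genes that were even within these 2 groups can thus go uncalled. Totals ran from 18105533 to 20003711 counts in 7 dpci and from 18173083 to 18566355 in HRAS DMSO. The 7 dpci libraries detected 20781 to 20966 genes and the HRAS DMSO libraries 21265 to 21773. The share of counts from mitochondrially encoded genes was 18.7% ± 2.37 in 7 dpci and 12.6% ± 3.05 in HRAS DMSO (SD, n = 3 in each). All 6 libraries held high levels of the ventricle's sarcomere genes, described below, as their tissue label states. On the leading principal component of the 1000 most variable genes, which took 64.7% of their variance, the 7 dpci libraries lay at 23.2 to 28.5, the HRAS DMSO libraries at 51.7 to 71.2 and the RFP DMSO libraries at -48.7 to -60.6. On the second, with 11.6%, the 7 dpci libraries at -36.8 to -40.4 stood apart from the HRAS DMSO libraries at 8.72 to 21.3. HRAS DMSO replicate 1 stood apart from replicates 2 and 3 for many of the genes below, and 7 dpci replicate 3 for the immediate-early genes.

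A cryoinjured zebrafish heart clears dead tissue with immune cells and lays down a transient matrix with fibroblast and epicardial cells. Cardiomyocytes beside the wound lower their contractile and oxidative programme, express fetal genes and divide. HRAS is a small GTPase that relays growth factor signals to the ERK kinase cascade, and forms locked in the active state drive cells to divide and can make tumours. In bulk ventricle RNA, fewer cells of a type and less RNA per cell cannot be told apart.

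Of 16421 genes tested, 4733 (28.8%) were called at an adjusted p under 0.05. Of these, 2192 (13.3% of those tested) were higher in 7 dpci and 2541 (15.5%) lower, and 3016 differed by at least 2-fold. The 3 libraries of the groups did not overlap for 8781 genes (53.5%), and 98.4% of the called genes were among these. The split depended on the scaling. Trimmed-mean (TMM) factors were 0.982 to 1.04 in 7 dpci and 1.21 to 1.35 in HRAS DMSO. Scaling to library totals called 1290 higher and 4617 lower, so that 21.8% of calls were higher against 46.3%, and moved the median of all genes from -0.047 to -0.39 on the log2 scale. Counts below are given in the order higher and lower in 7 dpci, levels are TMM-scaled CPM (counts scaled to 1 common library size), listed by replicate 1, 2 and 3, and differences are log2 values of 7 dpci minus HRAS DMSO. For scale, a list of genes that moved as all genes did would have 13.3% of its members called higher and 15.5% lower.

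**Figure D1:**
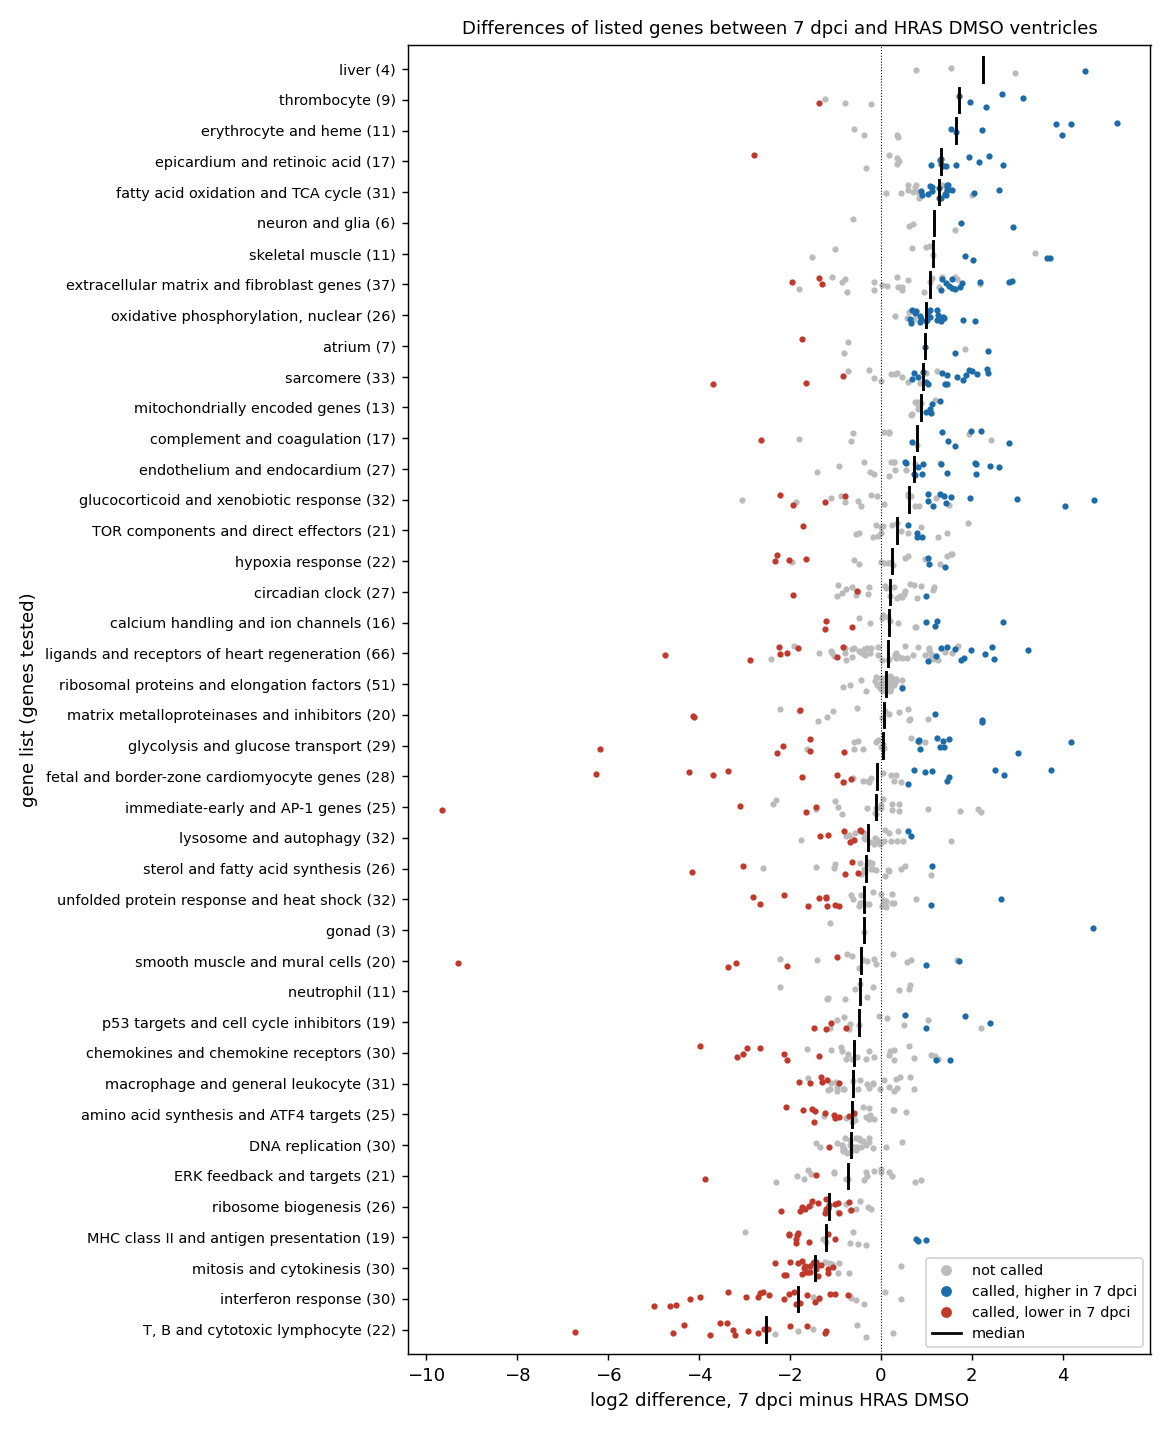
Each point is a tested gene of 1 list, placed by its log2 difference (7 dpci minus HRAS DMSO, x axis), with lists ordered by their median (black bar) and the number of genes tested in brackets. Blue and red points were called higher and lower at an adjusted p under 0.05. Fatty acid oxidation, oxidative phosphorylation and sarcomere genes lie mostly to the right, and lymphocyte, interferon, mitosis and ribosome biogenesis genes to the left.

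The zebrafish genes named HRAS came first. The annotation holds 2 genes with the symbol HRAS, and whether reads of the transgene were counted in either is not given in the sources used here. HRAS (ENSDARG00000098497) stood at 3.84, 3.66 and 3.12 CPM in 7 dpci and 6.21, 8.32 and 7.73 CPM in HRAS DMSO, against 1.57, 1.35 and 1.99 CPM in RFP DMSO. All 3 HRAS DMSO libraries were the highest, and the difference was -1.07 ± 0.33 (SE, adjusted p = 0.028). The call was lost without 7 dpci replicates 1, 2 or 3 or HRAS DMSO replicates 2 or 3 (adjusted p up to 0.1 over all settings). HRAS (ENSDARG00000005651) was at 9.68, 8.62 and 11.8 CPM in 7 dpci and 8.72, 3.81 and 5.34 CPM in HRAS DMSO and was not called (log2 difference 0.75 ± 0.28 (SE, adjusted p = 0.059)).

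More sarcomere genes were higher than lower in the injured hearts. Of 33 sarcomere genes tested, 18 were higher and 3 lower, with a median log2 difference of 0.94. MYL7 (ENSDARG00000019096), the myosin regulatory light chain used as a pan-cardiac marker, had 14885, 16715 and 15096 CPM in 7 dpci and 6222, 4722 and 3580.2 CPM in HRAS DMSO. The groups did not overlap and the log2 difference was 1.68 ± 0.27 (SE, adjusted p = 0.001). RFP DMSO lay between them at 9642, 9084 and 9487 CPM. MYH7 (ENSDARG00000079782), the ventricular myosin heavy chain, had 44310.1, 37986 and 41046 CPM in 7 dpci and 18165, 15776 and 11006 CPM in HRAS DMSO, a difference of 1.46 ± 0.23 (SE, adjusted p = 0.0011). actc1a (ENSDARG00000042535), a cardiac actin, differed by 1.41 ± 0.14 (SE, adjusted p = 0.00016). Cardiac troponin I tnni4a differed by 1.93 ± 0.28 (SE, adjusted p = 0.00068), the myosin-binding protein MYBPC3 by 1.46 ± 0.27 (SE, adjusted p = 0.0024) and the Z-disc protein ldb3b by 1.87 ± 0.32 (SE, adjusted p = 0.0015). Troponin T was split by gene. TNNT2 (ENSDARG00000020610) was at 4973 ± 606 CPM in 7 dpci and 3611 ± 901 CPM in HRAS DMSO (SD, n = 3 in each) and was not called (log2 difference 0.46 ± 0.20 (SE, adjusted p = 0.11)). The low TNNT2 (ENSDARG00000100694), at 1.44, 1.24 and 1.04 and 3.93, 4.59 and 3.19 CPM, was lower in 7 dpci, at -1.65 ± 0.36 (SE, adjusted p = 0.0053). Leaving out 7 dpci replicates 1, 2 and 3 and then HRAS DMSO replicates 1, 2 and 3 in turn gave 14, 12, 14, 19, 14 and 13 higher sarcomere calls and 1, 2, 1, 2, 1 and 1 lower ones, and this order holds for every such series below. Library totals gave 11 higher and 4 lower, median 0.60. The skeletal muscle list, of which the heart expresses some members, also had more higher than lower calls: 4 of 11 were higher and 0 lower (median 1.16, 3, 3, 4, 4, 5 and 3 higher with a library left out). It summed to 4659 to 5466 CPM in 7 dpci and 2213 to 4687 CPM in HRAS DMSO, so the groups overlapped. Its called genes were myhz2, a fast myosin, the creatine kinases ckma and ckmb, and the muscle factor MYOD1, with means of 1.48, 101, 14.6 and 2.04 CPM in 7 dpci and 0.109, 24.7, 1.098 and 0.559 CPM in HRAS DMSO. pvalb2 was at 0 in all 6 libraries. The part of skeletal muscle in the samples was not tested.

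Calcium handling did not move as 1 block: 4 of 16 genes were higher and 3 lower (median 0.18). atp2a2a (ENSDARG00000029439), a sarcoplasmic calcium pump, had 5256, 4702 and 5359 CPM in 7 dpci and 2577, 1975 and 2098 CPM in HRAS DMSO, a difference of 1.204 ± 0.17 (SE, adjusted p = 0.00058). A second pump gene, ATP2A2 (ENSDARG00000005122), went the other way, at 62.6, 66 and 60 and 103, 161 and 174 CPM, a difference of -1.21 ± 0.24 (SE, adjusted p = 0.0032). hrc (ENSDARG00000045947), which is outside the list and binds calcium in the sarcoplasmic reticulum, was at 117, 68.3 and 83 CPM in 7 dpci and 24.8, 4.42 and 5.82 CPM in HRAS DMSO (2.94 ± 0.62 (SE, adjusted p = 0.0045)). RFP DMSO had 85.8, 66.6 and 94.8 CPM of hrc. The pacemaker channel HCN4 (ENSDARG00000061685) was at 9.2, 7.44 and 12 and 2.83, 0.737 and 0.877 CPM, a difference of 2.70 ± 0.68 (SE, adjusted p = 0.011), but both were under the 43.4, 99.9 and 39.8 CPM of RFP DMSO. TNNI3K, a cardiac kinase also outside the list, was higher by 2.57 ± 0.41 (SE, adjusted p = 0.001). Its means were 106 CPM in 7 dpci, 17.9 CPM in HRAS DMSO and 134 CPM in RFP DMSO. With a library left out in turn, 2, 2, 2, 4, 3 and 2 genes of the list were higher and 2, 2, 2, 2, 2 and 2 lower, and library totals gave 2 higher and 4 lower, median -0.17.

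Natriuretic peptides, hormones of stretched or fetal heart muscle, were highest in the HRAS hearts. nppb (ENSDARG00000052958) stood at 93.4, 88.3 and 117 CPM in 7 dpci and 717, 2468 and 2349 CPM in HRAS DMSO. All 3 HRAS DMSO libraries were the highest, though replicate 1 lay well under replicates 2 and 3, and the difference was -4.21 ± 0.70 (SE, adjusted p = 0.0013). nppal (ENSDARG00000052948) had 4.31, 3.07 and 2.63 CPM in 7 dpci and 58.6, 389 and 328 CPM in HRAS DMSO (-6.27 ± 1.13 (SE, adjusted p = 0.002)). nppa (ENSDARG00000052960) had 1513, 1146 and 1479 and 2874, 5781 and 5011 CPM (-1.72 ± 0.31 (SE, adjusted p = 0.0019)), with 3059, 3403 and 3884 CPM in RFP DMSO. Injured hearts were thus the lowest of these 3 groups for nppa and nppb. In contrast, the secreted factor BMP10 was higher in 7 dpci. BMP10 (ENSDARG00000109233) had 149, 186 and 177 CPM against 29, 5.24 and 4.23 CPM (3.74 ± 0.74 (SE, adjusted p = 0.0034)), and BMP10 (ENSDARG00000061769) 78.4, 93.4 and 82.3 against 20.2, 7.82 and 10.9 CPM (2.71 ± 0.37 (SE, adjusted p = 0.00052)). Of the cardiac transcription factors, which were not tested as a group, GATA5 was higher in 7 dpci by 1.14 ± 0.20 (SE, adjusted p = 0.002) and TBX20 by 0.97 ± 0.18 (SE, adjusted p = 0.0022). NKX2-5 (ENSDARG00000018004) had 25.4, 29.8 and 24.2 CPM in 7 dpci and 1.19, 1.19 and 11.362 CPM in HRAS DMSO (2.52 ± 0.77 (SE, adjusted p = 0.027)), a call lost without 7 dpci replicates 1, 2 or 3 or HRAS DMSO replicates 1 or 2 or with these 6 libraries alone (adjusted p up to 0.083 over all settings). In the list of fetal and border-zone genes as a whole, 9 of 28 genes were higher and 8 lower. The series with a library left out were 6, 7, 5, 7, 6 and 7 higher and 4, 6, 4, 6, 4 and 4 lower, and library totals gave 6 higher and 12 lower, median -0.43. Of 7 atrial genes tested, 3 were higher and 1, nppa, lower, and the summed level of the list was 1605 to 1969 CPM in 7 dpci, 3510.3 to 6544 CPM in HRAS DMSO and 3965 to 4589 CPM in RFP DMSO. Whether atrial tissue in the samples has a part in the nppa difference was not tested.

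**Figure D2:**
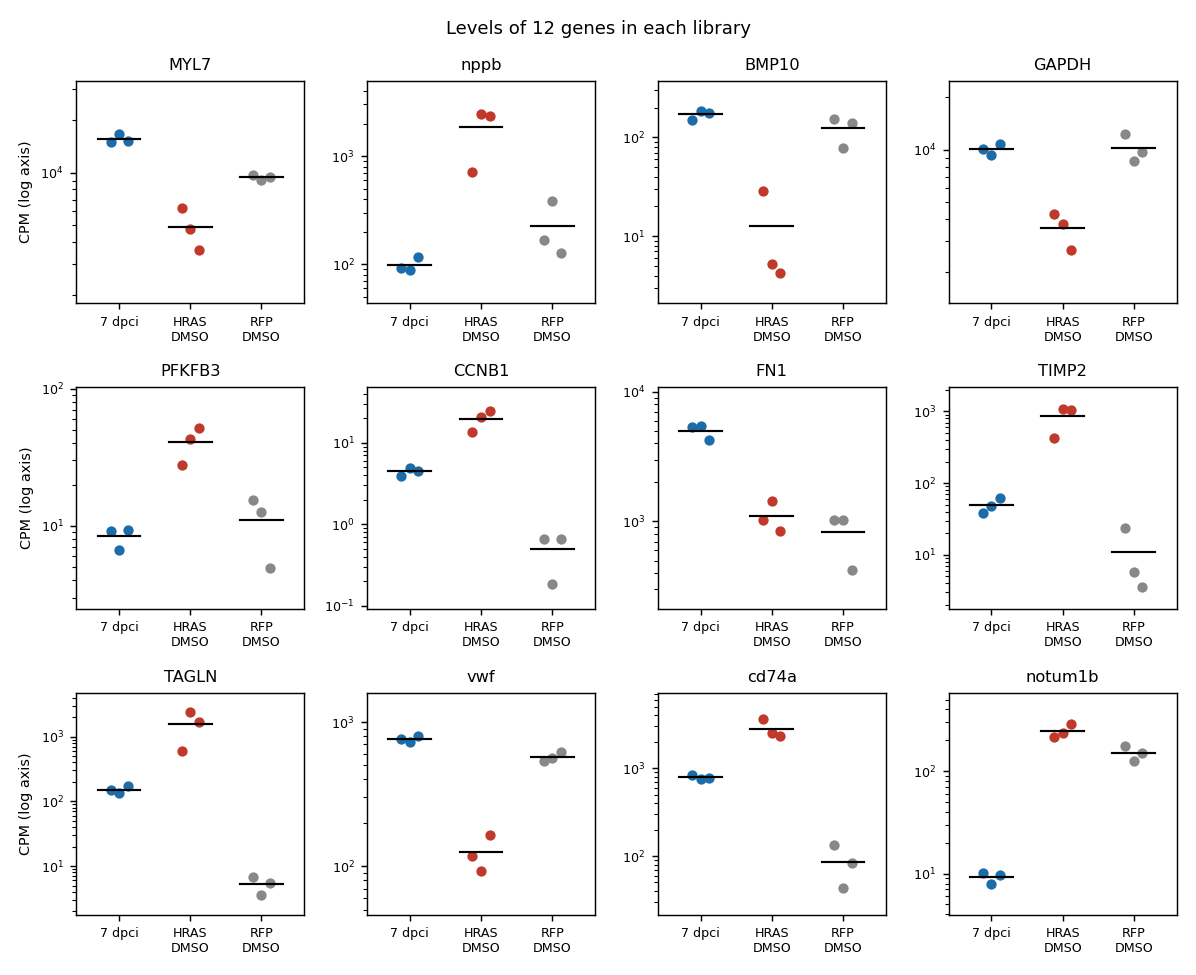
CPM on log axes of 12 genes in each library (points) of 7 dpci, HRAS DMSO and RFP DMSO, with group means (lines). MYL7, BMP10 (ENSDARG00000109233), GAPDH, FN1 (ENSDARG00000006526) and vwf were higher in all 3 7 dpci libraries than in any HRAS DMSO library. The other 7 genes were lower, and notum1b was at 10.1, 7.92 and 9.63 CPM in 7 dpci against 177, 126 and 152 CPM in RFP DMSO.

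Transcripts of oxidative metabolism were higher in the injured hearts. Of 26 nuclear genes of the respiratory chain, 22 were higher and 0 lower (median 1.0). Their summed level was 10241 to 10629 CPM in 7 dpci, 5130.5 to 5943 CPM in HRAS DMSO and 8702 to 9999 CPM in RFP DMSO. The complex II subunit SDHA had 674, 627 and 640.2 CPM in 7 dpci and 311, 231 and 233 CPM in HRAS DMSO (1.32 ± 0.24 (SE, adjusted p = 0.0022)), and the complex I subunit NDUFS3 differed by 1.38 ± 0.19 (SE, adjusted p = 0.00053). Leaving out 1 library in turn gave 21, 21, 21, 21, 21 and 18 higher calls, and library totals gave 18 higher and 0 lower, median 0.66. Genes of fatty acid oxidation and the TCA cycle went the same way, 18 of 31 higher and 0 lower (median 1.27). MDH2 (ENSDARG00000043371), the mitochondrial malate dehydrogenase, had 2019, 2261 and 2334 CPM in 7 dpci and 1048, 569.5 and 608 CPM in HRAS DMSO (1.57 ± 0.28 (SE, adjusted p = 0.002)), and FABP3, the heart fatty acid carrier, differed by 1.46 ± 0.36 (SE, adjusted p = 0.0098). ACADVL (ENSDARG00000016687), which oxidises long-chain fatty acids, had 2208, 1617 and 2014 and 558, 359 and 498 CPM (2.04 ± 0.55 (SE, adjusted p = 0.016)), a call lost without HRAS DMSO replicate 2 (adjusted p up to 0.058 over all settings). With a library left out, 17, 15, 15, 18, 13 and 14 genes were higher, and 28 of 30 when these 6 libraries were fitted alone. The 13 mitochondrially encoded genes all had positive differences, but 5 were called, 0, 0, 0, 8, 0 and 0 with a library left out and 13 when these 6 libraries were fitted alone.

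Glycolysis separated by isoform. Of 29 genes, 10 were higher and 6 lower (median 0.05, and 8 higher and 8 lower, median -0.31 with library totals). Among those higher in 7 dpci, GAPDH (ENSDARG00000043457) had 10111, 9263 and 10762 CPM against 4287, 3750.0 and 2662 CPM in HRAS DMSO (1.49 ± 0.33 (SE, adjusted p = 0.0058)). The muscle enzymes PGAM2 (mutase), ENO3 (enolase) and LDHB (the heart form of lactate dehydrogenase) were higher by 1.38 ± 0.18 (SE, adjusted p = 0.00038), 1.3004 ± 0.30 (SE, adjusted p = 0.0071) and 1.38 ± 0.27 (SE, adjusted p = 0.003). PKM (ENSDARG00000099860), a pyruvate kinase, had 172, 267 and 209 CPM in 7 dpci and 48.4, 15 and 15.9 CPM in HRAS DMSO (3.03 ± 0.49 (SE, adjusted p = 0.0012)). PFKM (ENSDARG00000014179), the muscle phosphofructokinase, was at 9.73, 6.52 and 3.72 and 0.913, 0.123 and 0.0797 CPM (4.18 ± 0.72 (SE, adjusted p = 0.0017)). On the HRAS side, PFKFB3 (ENSDARG00000001953), which makes the activator of phosphofructokinase, had 9.2, 6.63 and 9.3 CPM in 7 dpci and 27.9, 43.3 and 51.5 CPM in HRAS DMSO (-2.29 ± 0.55 (SE, adjusted p = 0.0089)). The glucose transporter slc2a3a (ENSDARG00000013295) had 0.336, 0.0539 and 0.274 CPM in 7 dpci and 1.37, 24.7 and 24.2 CPM in HRAS DMSO (-6.18 ± 1.36 (SE, adjusted p = 0.0057)), replicate 1 being far below the other HRAS DMSO libraries. Its relative slc2a3b differed by -2.92 ± 0.65 (SE, adjusted p = 0.0061). The enolase ENO1 (ENSDARG00000013750) was at 3.45, 5.55 and 3.39 and 10.4, 20.9 and 23.8 CPM (-2.15 ± 0.56 (SE, adjusted p = 0.012)), a call lost without 7 dpci replicates 1 or 3 (adjusted p up to 0.052 over all settings). Counts with a library left out were 9, 9, 10, 10, 10 and 9 higher and 3, 4, 2, 6, 3 and 4 lower. A pair of glycogen genes was higher in 7 dpci: PYGM (ENSDARG00000055518), muscle glycogen phosphorylase, by 3.48 ± 0.73 (SE, adjusted p = 0.0046) and PPP1R3D (ENSDARG00000076248), which brings a phosphatase to glycogen, by 4.24 ± 0.82 (SE, adjusted p = 0.0029).

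Mitotic genes were lower in the injured hearts. Of 30 genes of mitosis and cytokinesis, 23 were lower and 0 higher, with a median of -1.45. Summed over the list, the levels were 264, 287 and 240.4 CPM in 7 dpci and 478, 796 and 849 CPM in HRAS DMSO. Both were above the 18.2, 21.5 and 26 CPM of RFP DMSO, and RFP DMSO was the lowest group for all 23 called genes. CCNB1 (ENSDARG00000051923), the cyclin of mitotic entry, had 3.88, 4.96 and 4.54 CPM in 7 dpci and 13.4, 20.6 and 24.2 CPM in HRAS DMSO (-2.12 ± 0.42 (SE, adjusted p = 0.0032)). UBE2C (ENSDARG00000114670) and CDC20 (ENSDARG00000100741), which serve the anaphase-promoting complex, differed by -2.08 ± 0.33 (SE, adjusted p = 0.001) and -2.33 ± 0.55 (SE, adjusted p = 0.0079), and anln, a scaffold of the cleavage furrow, by -1.74 ± 0.42 (SE, adjusted p = 0.0087). The general proliferation marker mki67 (ENSDARG00000091150) had 32.3, 33.8 and 27.8 CPM in 7 dpci and 43.2, 66.7 and 71.4 CPM in HRAS DMSO. Its libraries did not overlap, but it was not called (log2 difference -0.95 ± 0.37 (SE, adjusted p = 0.068)). Of 30 DNA replication genes, 1 was called lower (median -0.64), against 0, 1, 0, 2, 0 and 0 with a library left out, 12 when these 6 libraries were fitted alone and 8 with library totals. It was the polymerase gene POLD1 (-1.15 ± 0.33 (SE, adjusted p = 0.02)), a call lost without 7 dpci replicates 1 or 3 or HRAS DMSO replicates 2 or 3 (adjusted p up to 0.078 over all settings). PCNA (ENSDARG00000054155), the replication clamp, was at 115, 114 and 95.7 and 123.3, 139 and 144 CPM (-0.32 ± 0.22 (SE, adjusted p = 0.29)). The mitotic count depended on the libraries, at 11, 14, 10, 21, 9 and 12 with 1 left out in turn and 26 with library totals. Of 19 p53 targets and cell cycle inhibitors, 4 were higher and 4 lower (2, 2, 1, 4, 1 and 1 and 3, 3, 2, 4, 3 and 3 with a library left out). BAX (ENSDARG00000020623), an effector of apoptosis, had 19.7, 19.9 and 23.1 CPM in 7 dpci and 48.5, 47.2 and 48.7 CPM in HRAS DMSO (-1.202 ± 0.23 (SE, adjusted p = 0.0028)). The stress-induced GADD45B (ENSDARG00000027744) had 104, 219 and 257 and 60.2, 22.2 and 27.2 CPM (2.40 ± 0.53 (SE, adjusted p = 0.0059)).

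**Figure D3:**
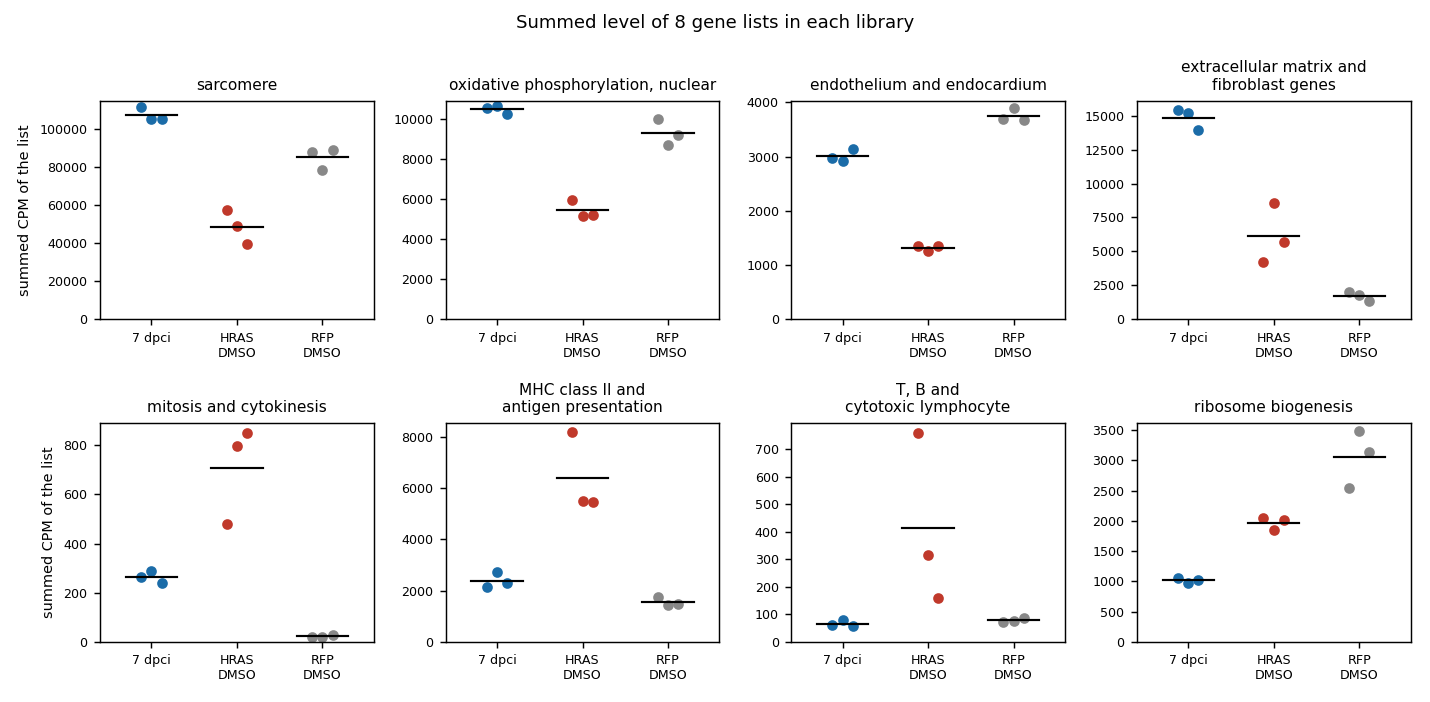
Summed CPM of 8 gene lists (linear axes from 0) in each library of 7 dpci, HRAS DMSO and RFP DMSO, with group means as lines. The 7 dpci libraries were above every HRAS DMSO library for sarcomere, oxidative phosphorylation, endothelial and matrix lists and below them for the other 4. Mitosis genes summed to 18.2 to 26 CPM in RFP DMSO, 240.4 to 287 CPM in 7 dpci and 478 to 849 CPM in HRAS DMSO.

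The summed level of matrix genes was above RFP DMSO in both groups and highest after injury. Of 37 matrix and fibroblast genes, 12 were higher and 3 lower (median 1.08). The summed level was 15404, 15165 and 13959.9 CPM in 7 dpci, 4212, 8536 and 5689 CPM in HRAS DMSO and 2040.1, 1779.9 and 1344 CPM in RFP DMSO. The fibronectin gene FN1 (ENSDARG00000006526) had 5375, 5448 and 4221 CPM in 7 dpci and 1025, 1441 and 852 CPM in HRAS DMSO (2.18 ± 0.34 (SE, adjusted p = 0.001)). Its namesake FN1 (ENSDARG00000019815) had 63, 65.8 and 87.9 and 22.7, 88.9 and 43.8 CPM, overlapped and was not called (0.48 ± 0.63 (SE, adjusted p = 0.6)). LUM (ENSDARG00000045580), a collagen-binding proteoglycan, had 41.7, 27.8 and 54.2 CPM in 7 dpci and 6.85, 6.02 and 3.87 CPM in HRAS DMSO (2.88 ± 0.68 (SE, adjusted p = 0.0081)), and the collagen chaperone SERPINH1 (ENSDARG00000019949) 87.2, 53.1 and 44.4 and 5.21, 7.74 and 16.4 CPM (2.65 ± 0.41 (SE, adjusted p = 0.00093)). Collagen VI genes col6a1 and COL6A2 were higher by 1.58 ± 0.40 (SE, adjusted p = 0.011) and 1.75 ± 0.38 (SE, adjusted p = 0.0052), and the fibroblast receptor PDGFRA by 1.57 ± 0.33 (SE, adjusted p = 0.0043). Periostin, a matrix protein of activated fibroblasts, varied among HRAS DMSO libraries. POSTN (ENSDARG00000043806) had 179, 203 and 158 CPM in 7 dpci and 16.5, 47.6 and 91.4 CPM in HRAS DMSO (1.79 ± 0.48 (SE, adjusted p = 0.015)), a call lost without HRAS DMSO replicate 2 (adjusted p up to 0.052 over all settings). POSTN (ENSDARG00000104267), at 777, 775 and 1088 and 64.9, 404 and 112 CPM, was not called (2.19 ± 0.85 (SE, adjusted p = 0.07)). Collagen I gene COL1A1 (ENSDARG00000035809) had 2029, 1956 and 1757 and 520.5, 1054 and 669 CPM (1.36 ± 0.44 (SE, adjusted p = 0.035)), lost without 7 dpci replicates 1, 2 or 3 or HRAS DMSO replicates 1 or 3 or with library totals or with the replicate block (adjusted p up to 0.1 over all settings), while col1a1a (ENSDARG00000012405) was not called (1.14 ± 0.46 (SE, adjusted p = 0.082)), nor was either COL12A1 gene, at 1.63 ± 0.62 and 0.37 ± 0.50. TGFBI (ENSDARG00000071586), a matrix protein induced by TGF-beta, was lower in 7 dpci, at 14.7, 21.1 and 13 against 62.8, 68 and 58.4 CPM (-1.95 ± 0.38 (SE, adjusted p = 0.0032)). With a library left out the list had 8, 10, 9, 10, 13 and 9 genes higher and 1, 1, 1, 2, 1 and 1 lower, with the 6 libraries alone 20 and 4, and with library totals 9 higher and 4 lower, median 0.74.

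Of 20 proteases and inhibitors tested, 3 were higher and 3 lower (library totals gave 2 higher and 5 lower, median -0.28), shares near those of all genes. TIMP2 (ENSDARG00000075261), an inhibitor of metalloproteinases, had 38.592, 48.1 and 61.3 CPM in 7 dpci and 421, 1097 and 1057 CPM in HRAS DMSO (-4.12 ± 0.90 (SE, adjusted p = 0.0056)). PLAT (ENSDARG00000062707), the tissue plasminogen activator, had 8.15, 6.52 and 6.4 and 69.3, 183 and 113 CPM (-4.11 ± 0.61 (SE, adjusted p = 0.00075)). In RFP DMSO PLAT was at 8.03, 5.81 and 3.86 CPM, which overlapped the injured hearts. mmp11b (ENSDARG00000016718) and TIMP4 (ENSDARG00000100795) were higher in 7 dpci by 2.22 ± 0.56 (SE, adjusted p = 0.011) and 2.23 ± 0.43 (SE, adjusted p = 0.0029). The collagenase mmp13a (ENSDARG00000012395) was at 0.24, 0.916 and 0.93 and 2.19, 6.64 and 0.877 CPM and was not called (-2.22 ± 0.80 (SE, adjusted p = 0.053)). With a library left out, 2, 3, 3, 2, 3 and 2 were higher and 2, 2, 2, 2, 2 and 3 lower.

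Epicardial genes, markers of the outer cell layer that feeds fibroblasts and signals to the wound, were higher in 7 dpci for 11 of 17 genes and lower for 1 (median 1.32). TCF21 (ENSDARG00000036869) had 6.18, 7.65 and 6.89 CPM in 7 dpci and 1.46, 1.6 and 0.877 CPM in HRAS DMSO, with 2.35, 1.47 and 1.88 CPM in RFP DMSO (2.39 ± 0.30 (SE, adjusted p = 0.00037)). WT1 was higher by 1.65 ± 0.37 (SE, adjusted p = 0.0067). RBP4 (ENSDARG00000101199), which carries retinol, had 344, 283 and 419 and 61.4, 53.3 and 47.9 CPM (2.68 ± 0.38 (SE, adjusted p = 0.0006)), with 386, 562 and 353 CPM in RFP DMSO. Cellular retinoic acid binding was split between CRABP2 (ENSDARG00000030449), higher by 2.15 ± 0.55 (SE, adjusted p = 0.011), and CRABP2 (ENSDARG00000073978), at 2.97, 1.83 and 5.63 CPM in 7 dpci and 11.9, 34.1 and 26 CPM in HRAS DMSO, lower, at -2.79 ± 0.85 (SE, adjusted p = 0.026). The call of the second was lost without 7 dpci replicates 1 or 2 or HRAS DMSO replicates 2 or 3 or with the replicate block (adjusted p up to 0.094 over all settings). ALDH1A2 (ENSDARG00000053493), the enzyme that makes retinoic acid, was at 4.46, 8.41 and 5.69 and 3.38, 3.85 and 6.7 CPM and was not called (0.41 ± 0.35 (SE, adjusted p = 0.39)). Counts of epicardial genes higher with a library left out were 7, 8, 9, 9, 9 and 7, and library totals gave 8 higher and 1 lower, median 0.97.

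Vascular and endocardial genes were higher in the injured hearts than in the HRAS hearts. Of 27 genes, 14 were higher in 7 dpci and 0 lower (median 0.73). The list summed to 2917 to 3139 CPM in 7 dpci, 1260.4 to 1358 CPM in HRAS DMSO and 3666 to 3901 CPM in RFP DMSO, and 10 of the 14 called genes were highest in RFP DMSO. vwf (ENSDARG00000077231), the von Willebrand factor of endothelium and thrombocytes, had 761, 728 and 798 CPM in 7 dpci and 118, 92 and 165 CPM in HRAS DMSO (2.61 ± 0.25 (SE, adjusted p = 0.00015)). NFATC1 (ENSDARG00000036168), a transcription factor of endocardium, had 122, 105 and 128 and 26.2, 24.6 and 32.1 CPM (2.098 ± 0.21 (SE, adjusted p = 0.00016)), and cdh5 (ENSDARG00000075549), the endothelial cadherin, 329, 312 and 369.7 and 139, 182 and 209 CPM (0.93 ± 0.17 (SE, adjusted p = 0.0019)). The apelin receptors aplnra and aplnrb were higher by 2.07 ± 0.50 (SE, adjusted p = 0.0094) and 2.096 ± 0.48 (SE, adjusted p = 0.007). kdrl (ENSDARG00000105215), a VEGF receptor, differed less, at 174, 184 and 224 against 122.84, 116 and 111 CPM (0.73 ± 0.19 (SE, adjusted p = 0.012)), lost without 7 dpci replicate 3 or with library totals (adjusted p up to 0.091 over all settings). Counts with a library left out were 11, 11, 9, 15, 12 and 9, and library totals gave 9 higher and 0 lower, median 0.39.

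Smooth muscle markers moved the other way in part, 2 of 20 higher and 5 lower (median -0.43). MYH11 (ENSDARG00000100972), the smooth muscle myosin, was at 0.0479, 0 and 0 CPM in 7 dpci, which was 1 count over the group, and at 0.868, 22.4 and 21.8 CPM in HRAS DMSO, where replicate 1 was far below the others. The ratio of HRAS DMSO to 7 dpci was 899 (95% counting interval 161 to 35531, covering counting error only). TAGLN (ENSDARG00000045408), which binds actin in smooth muscle and in immature heart muscle, had 150.2, 132 and 174 CPM in 7 dpci and 609.6, 2363 and 1706 CPM in HRAS DMSO (-3.36 ± 0.86 (SE, adjusted p = 0.012)), while RFP DMSO had 6.85, 3.55 and 5.46 CPM. acta2 (ENSDARG00000045180), the smooth muscle actin, was at 129.6, 119 and 109 and 105, 149.9 and 140.4 CPM and was not called (-0.14 ± 0.39 (SE, adjusted p = 0.81)). The summed list was at 2334 to 2655 CPM in 7 dpci and 2517 to 5819 CPM in HRAS DMSO, so the groups overlapped. Leaving out a library gave 2, 3, 3, 5, 2 and 2 lower calls.

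Red cell genes were called in 7 of 11 cases, all higher (median 1.67), and summed to 666, 899.8 and 471 CPM in 7 dpci, 125, 158 and 133 CPM in HRAS DMSO and 154, 221 and 301 CPM in RFP DMSO. hbaa1 (ENSDARG00000097011), an alpha globin, had 332, 509 and 262 CPM in 7 dpci and 31, 21 and 17.9 CPM in HRAS DMSO (3.98 ± 0.36 (SE, adjusted p = 0.00011)), and the red cell anion exchanger SLC4A1 (ENSDARG00000012881) 54.1, 66 and 25.4 and 1.69, 3.61 and 2.71 CPM (4.18 ± 0.43 (SE, adjusted p = 0.00016)). The gene with the largest difference toward 7 dpci by the rule for named genes was a clotting gene. F13A1 (ENSDARG00000045453), a gene for the factor XIII chain that cross-links fibrin, had 166, 153 and 75.7 CPM in 7 dpci and 0.228, 0.737 and 0.279 CPM in HRAS DMSO (8.27 ± 1.03 (SE, adjusted p = 0.00035)), with 0.0653, 0.0611 and 0.331 CPM in RFP DMSO. All 3 7 dpci libraries were high and all 6 others near 0. The related f13a1b was not called. Of 17 complement and coagulation genes, 7 were higher and 1 lower. Among these, coagulation factor F10 (ENSDARG00000088581) had 143, 147 and 151 and 37.4, 37.6 and 20.7 CPM (2.201 ± 0.29 (SE, adjusted p = 0.00044)), the clotting regulator thbd (ENSDARG00000092470) 18.8, 14 and 12.5 and 4.25, 4.14 and 3.07 CPM (1.98 ± 0.23 (SE, adjusted p = 0.00025)), and complement genes c4b and c7a differed by 1.65 ± 0.40 (SE, adjusted p = 0.0087) and 1.34 ± 0.34 (SE, adjusted p = 0.011). Thrombocyte genes were higher for 5 of 9, with itga2b (ENSDARG00000018687), the platelet integrin, at 32.6, 34.6 and 28.5 and 8.45, 5.53 and 5.14 CPM (2.32 ± 0.29 (SE, adjusted p = 0.00033)). The list summed to 288 to 353 CPM in 7 dpci and 279.9 to 786 CPM in HRAS DMSO, and the groups overlapped. The 1 lower thrombocyte gene, THBS1 (ENSDARG00000103775), had 119.7, 115 and 149 and 159, 383 and 442 CPM (-1.36 ± 0.48 (SE, adjusted p = 0.048)) and was lost without 7 dpci replicates 1, 2 or 3 or HRAS DMSO replicates 2 or 3 or with no filter on low counts or with the replicate block or with mitochondrially encoded genes left out (adjusted p up to 0.15 over all settings). The part of blood left in the samples in these differences was not tested. Leaving out a library gave 5, 5, 6, 7, 5 and 5 red cell calls, 6, 5, 5, 8, 6 and 6 higher complement and coagulation calls and 5, 5, 5, 5, 5 and 5 higher thrombocyte calls.

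Lymphocyte transcripts were more abundant in the HRAS hearts. The lymphocyte list had 16 of 22 tested genes lower in 7 dpci and 0 higher (median -2.53), out of 37 matched, with prf1.1 at 0 in all 6 libraries. The filter on low counts could pass a gene on its level in HRAS DMSO alone. With no filter, 18 of 36 were lower and 0 higher (median -2.37). The summed level of the list was 61.9, 78.9 and 58.4 CPM in 7 dpci, 760.5, 317 and 160.3 CPM in HRAS DMSO and 71.5, 75.5 and 85.2 CPM in RFP DMSO. The pore-forming perforin prf1.8 (ENSDARG00000109428) had 3.02, 1.02 and 1.204 CPM in 7 dpci and 400.3, 105 and 60.8 CPM in HRAS DMSO (-6.73 ± 1.52 (SE, adjusted p = 0.0064)), and the T cell receptor chain trbc1 (ENSDARG00000091233) 1.25, 2.64 and 0.93 and 26.6, 14.7 and 8.77 CPM (-3.38 ± 0.46 (SE, adjusted p = 0.00051)). HRAS DMSO replicate 1 was the highest library for both. The T cell kinase ZAP70, the receptor il7r and foxp3a, a factor of regulatory T cells, differed by -3.53 ± 0.64 (SE, adjusted p = 0.0022), -3.21 ± 0.49 (SE, adjusted p = 0.0009) and -2.92 ± 0.65 (SE, adjusted p = 0.0059). The B cell gene ighm (ENSDARG00000096355) was at 1.97, 10.7 and 6.02 and 32.8, 29.3 and 3.51 CPM, overlapped and was not called (-1.81 ± 0.79 (SE, adjusted p = 0.1)). Lymphocyte calls with a library left out were 9, 11, 9, 10, 12 and 20.

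Of 31 macrophage and general leukocyte genes, 6 were lower in 7 dpci and 0 higher (median -0.60, 4, 5, 3, 4, 5 and 5 lower with a library left out), a share not far from that of all genes, and 11 were lower with library totals and in the fit of these 6 libraries alone. The pan-leukocyte phosphatase ptprc (ENSDARG00000071437) had 49.1, 76.2 and 58.6 CPM in 7 dpci and 141, 179 and 134 CPM in HRAS DMSO (-1.302 ± 0.28 (SE, adjusted p = 0.0047)), and LCP1 (ENSDARG00000023188), an actin bundler of leukocytes, 70.8, 88.9 and 68.2 and 370.0, 226 and 199.9 CPM (-1.80 ± 0.38 (SE, adjusted p = 0.0049)). The list summed to 879 to 1055 CPM in 7 dpci and 1524 to 2258 CPM in HRAS DMSO, without overlap. The macrophage gene MPEG1 (ENSDARG00000043093) was at 10.2, 9.22 and 11.3 and 22.3, 19.9 and 18.1 CPM without overlap and was not called (-0.97 ± 0.75 (SE, adjusted p = 0.35)), nor was the scavenger receptor marco (-0.25 ± 0.47 (SE, adjusted p = 0.72)). MRC1 (ENSDARG00000102100), the mannose receptor, stood out at 7.14, 5.66 and 6.67 CPM in 7 dpci, 57.1, 58.4 and 44.6 CPM in HRAS DMSO and 0.588, 0.428 and 0.496 CPM in RFP DMSO (-3.04 ± 0.44 (SE, adjusted p = 0.00073)). None of 11 neutrophil genes was called by edgeR in the fit of all libraries with TMM scaling, and their levels summed to 147 to 164 CPM in 7 dpci and 144 to 223 CPM in HRAS DMSO, with lyz at 0. Counts at an unadjusted p under 0.05 and by DESeq2 for this list were 3 and 2. In other edgeR fits 3 were lower with library totals, 2 without HRAS DMSO replicate 3, 1 with DESeq2 size factors, 1 with these 6 libraries alone, with or without the replicate block, and 1 without the HRAS rapamycin group.

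Genes of antigen presentation and the interferon response were also lower more often than higher in 7 dpci. These lists share members, among them PSMB8, and cxcl11.4 is on both the interferon and the chemokine list, so the counts are not separate results. Of 19 antigen presentation genes, 9 were lower and 3 higher in 7 dpci. With a library left out, 8, 10, 8, 8, 8 and 9 were lower and 0, 1, 0, 2, 1 and 0 higher, and library totals gave 0 higher and 13 lower, median -1.53. cd74a (ENSDARG00000009087), the class II invariant chain, had 847, 751 and 779 CPM in 7 dpci and 3604, 2525 and 2306 CPM in HRAS DMSO (-1.83 ± 0.42 (SE, adjusted p = 0.0071)), with 133, 42.9 and 84.2 CPM in RFP DMSO. Injured hearts thus lay between the others, and cd74b (-1.57 ± 0.36 (SE, adjusted p = 0.007)) and the class II activator ciita (-1.85 ± 0.31 (SE, adjusted p = 0.0013)) had the same order of group means. mhc2dab (ENSDARG00000079105) had 51, 39.7 and 19.6 and 356, 238 and 281 CPM without overlap and was not called (-2.99 ± 1.09 (SE, adjusted p = 0.054)). The immunoproteasome subunit PSMB8 (ENSDARG00000001303) and the peptide transporter tap2a (ENSDARG00000036787) were lower, at -1.86 ± 0.41 (SE, adjusted p = 0.0058) and -2.02 ± 0.41 (SE, adjusted p = 0.0038). Interferon response genes were lower in 22 of 30 and higher in 0 cases (median -1.81, 18, 18, 17, 17, 21 and 21 with a library left out). The antiviral GTPase mxb (ENSDARG00000004953) had 0.527, 0.431 and 0.492 CPM in 7 dpci and 20.2, 6.64 and 6.58 CPM in HRAS DMSO (-4.50 ± 0.54 (SE, adjusted p = 0.00028)), and ifit8 (ENSDARG00000057173), an interferon-induced RNA-binding protein, 0.144, 0.162 and 0.164 and 10.2, 2.05 and 3.15 CPM (-4.98 ± 0.65 (SE, adjusted p = 0.00042)). Both genes were highest in HRAS DMSO replicate 1. Of 30 chemokine and chemokine receptor genes 8 were lower and 2 higher. The list summed to 264 to 342 CPM in 7 dpci and 252 to 371 CPM in HRAS DMSO, so the groups overlapped, and to 68 to 93.6 CPM in RFP DMSO. The higher call of ACKR4 (ENSDARG00000078729) was lost in 8 of 15 alternatives. The interferon-induced cxcl11.4 (ENSDARG00000101138) was at 0.336, 0.377 and 0.547 and 9.64, 4.38 and 5.94 CPM (-3.97 ± 0.64 (SE, adjusted p = 0.0011)), and CXCL12 (ENSDARG00000037116), a guidance cue of vessels and stroma, at 116, 125 and 85.4 and 39.8, 61.1 and 38.8 CPM, higher by 1.22 ± 0.27 (SE, adjusted p = 0.0055).

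Signalling readouts did not move together. Of 21 feedback regulators and targets of ERK, 2 were lower and 0 higher in 7 dpci. DUSP6 (ENSDARG00000070914), the phosphatase that ERK induces to switch itself off, had 0.911, 3.23 and 1.91 CPM in 7 dpci and 5.07, 46.1 and 36.8 CPM in HRAS DMSO (-3.86 ± 0.78 (SE, adjusted p = 0.0036)). Replicate 1 of HRAS DMSO lay below the 12.5, 7.28 and 11.8 CPM of RFP DMSO. SPRY1 (ENSDARG00000103985), a feedback inhibitor, was at 2.01, 2.16 and 2.08 and 4.43, 4.88 and 7.38 CPM (-1.41 ± 0.38 (SE, adjusted p = 0.015)), lost without 7 dpci replicates 1 or 3 or HRAS DMSO replicate 3 (adjusted p up to 0.065 over all settings). ETV4 (ENSDARG00000018303), an ERK-dependent transcription factor, missed the threshold at 0.863, 0.754 and 0.602 and 2.6, 2.05 and 1.83 CPM (-1.53 ± 0.55 (SE, adjusted p = 0.05)). Summed, the list was at 412, 671 and 1153 CPM in 7 dpci and 816, 832 and 918 CPM in HRAS DMSO, and the groups overlapped. Library totals gave 0 higher and 6 lower, median -1.05, and 1, 2, 3, 2, 2 and 1 were lower with a library left out.

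Immediate-early genes, which respond to stimuli within minutes and also to handling of tissue, varied among the 7 dpci libraries. Their sum was 741, 1226 and 3711 CPM in 7 dpci and 2234, 1367 and 1553 CPM in HRAS DMSO. FOS (ENSDARG00000031683) had 64.7, 100.2 and 903 CPM in 7 dpci and 313, 79.3 and 128 CPM in HRAS DMSO, and egr1 (ENSDARG00000037421) 31.3, 47.9 and 139.6 and 68.3, 53.3 and 44.4 CPM, replicate 3 of 7 dpci being the highest library for both. Neither was called (1.04 ± 1.19 (SE, adjusted p = 0.54) and 0.40 ± 0.80 (SE, adjusted p = 0.74)). Of 25 genes, 4 were lower and 0 higher (1, 1, 3, 2, 3 and 2 lower with a library left out). Among the lower genes, fosaa stayed called in all 15 alternatives, at log2 differences of -3.4 to -3.0 (adjusted p up to 0.048). The call of fosl1b was lost in 10 of 15. ATF3 (ENSDARG00000007823), a stress-induced factor, was at 7.1, 14 and 26.5 and 96.6, 76.2 and 71.9 CPM without overlap and was not called (-2.36 ± 0.90 (SE, adjusted p = 0.064)). It was called in 5 alternatives, among them DESeq2 (adjusted p = 0.013) and the fit of these 6 libraries alone (adjusted p = 0.0071). NPAS4 (ENSDARG00000055752) was at 0 counts in all 3 7 dpci libraries and at 1.14, 3.85 and 11.2 CPM in HRAS DMSO, at least 108-fold higher against a floor of 3 counts over the 7 dpci group. Its call (adjusted p = 0.023) was lost without 7 dpci replicates 1, 2 or 3 or HRAS DMSO replicate 3 or with the replicate block (adjusted p up to 0.063 over all settings).

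Secreted factors and receptors studied in heart regeneration were called in both directions, 12 higher and 8 lower of 66 tested (median 0.17, and 9 higher and 15 lower, median -0.18 with library totals). The shares of the main fit were near the 13.3% and 15.5% of all genes tested, so the list as a whole did not stand out. The most significant difference among the named genes was of this list. notum1b (ENSDARG00000117145), an enzyme that inactivates secreted Wnt proteins, had 10.1, 7.92 and 9.63 CPM in 7 dpci and 214, 235 and 290.1 CPM in HRAS DMSO (-4.74 ± 0.27 (SE, adjusted p = 1.6e-06)). RFP DMSO had 177, 126 and 152 CPM, so that the injured hearts were the lowest group. The Wnt ligands WNT11 and WNT5B were higher in 7 dpci by 1.84 ± 0.43 (SE, adjusted p = 0.0077) and 1.22 ± 0.24 (SE, adjusted p = 0.0034). WNT11 had means of 24.7 CPM in 7 dpci, 6.89 CPM in HRAS DMSO and 7.06 CPM in RFP DMSO. For WNT5B the means were 11.3, 4.86 and 12.4 CPM in the same order, so RFP DMSO was near 7 dpci. NOTCH1 (ENSDARG00000052094) and NOTCH1 (ENSDARG00000103554), receptors of the Notch pathway, had 561, 513 and 549 and 66.2, 76.6 and 80.6 CPM in 7 dpci and 193, 211 and 244 and 36.6, 24.7 and 20.5 CPM in HRAS DMSO. They were higher by 1.32 ± 0.16 (SE, adjusted p = 0.00025) and 1.45 ± 0.31 (SE, adjusted p = 0.0053). RFP DMSO had 667, 576 and 529 and 81.5, 74.1 and 86.5 CPM, which overlapped the injured hearts for both genes. fgf17 (ENSDARG00000102778), a fibroblast growth factor, had 62.2, 68.9 and 53.2 and 21.6, 5.74 and 5.7 CPM (2.48 ± 0.46 (SE, adjusted p = 0.0024)). MDK (ENSDARG00000036036), the growth factor midkine, had 798, 777 and 786 CPM in 7 dpci, 193, 376 and 194 CPM in HRAS DMSO and 59.7, 20.7 and 25.8 CPM in RFP DMSO (1.63 ± 0.57 (SE, adjusted p = 0.045)), lost without 7 dpci replicates 1, 2 or 3 or HRAS DMSO replicates 1 or 3 or with library totals or with the replicate block (adjusted p up to 0.14 over all settings). RUNX1 (ENSDARG00000087646), a blood and injury-response factor, was lower in 7 dpci at 6.81, 7.98 and 7.06 against 24.2, 26.8 and 26.1 CPM (-1.82 ± 0.47 (SE, adjusted p = 0.013)), with 20.4, 30.9 and 23.8 CPM in RFP DMSO. BMP4 (ENSDARG00000019995) was at 4.46, 7.11 and 4.6 and 8.81, 51.4 and 15.1 CPM (-2.22 ± 0.66 (SE, adjusted p = 0.025)), replicate 2 of HRAS DMSO being the highest, and was lost without 7 dpci replicates 1, 2 or 3 or HRAS DMSO replicate 2 (adjusted p up to 0.2 over all settings). The mitogen NRG1 (ENSDARG00000104314) (-0.76 ± 0.48 (SE, adjusted p = 0.25)), il11a (ENSDARG00000037859) (-2.40 ± 1.39 (SE, adjusted p = 0.21)) and lepb (ENSDARG00000045548) (1.71 ± 0.94 (SE, adjusted p = 0.19)) were not called, and ihha, with 1 count among the 6 libraries, was not tested. Leaving out a library gave 9, 9, 9, 12, 11 and 8 higher and 3, 2, 3, 7, 4 and 5 lower.

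Ribosome biogenesis transcripts were lower in the injured hearts, with 18 of 26 genes lower and 0 higher (median -1.14). The list summed to 979 to 1049 CPM in 7 dpci, 1847 to 2039 CPM in HRAS DMSO and 2542 to 3494 CPM in RFP DMSO, so 7 dpci was the lowest group. DKC1 (ENSDARG00000016484), which modifies ribosomal RNA, had 21.1, 21.1 and 20 CPM in 7 dpci and 58.2, 73.3 and 80.3 CPM in HRAS DMSO (-1.77 ± 0.28 (SE, adjusted p = 0.001)), and NOP58 and ncl, nucleolar proteins, were lower, at -1.67 ± 0.30 (SE, adjusted p = 0.0022) and -1.16 ± 0.21 (SE, adjusted p = 0.0023). The calls with a library left out were 14, 10, 11, 14, 12 and 14. Of 51 ribosomal proteins and elongation factors, 1 was called, the elongation factor gene EEF1B2, higher by 0.47 ± 0.16 (SE, adjusted p = 0.043) and lost in 8 of 15 alternatives (list median 0.11, 0 higher and 3 lower, median -0.23 with library totals). Genes of amino acid synthesis and targets of the transcription factor ATF4, taken as 1 list, were lower in 11 of 25 and higher in 0 cases (6, 6, 6, 12, 6 and 6 with a library left out). ASNS, which makes asparagine, was lower, at -0.92 ± 0.19 (SE, adjusted p = 0.0038), PSPH of serine synthesis by -1.44 ± 0.29 (SE, adjusted p = 0.0036) and sesn2 (ENSDARG00000070012), a stress sensor upstream of the kinase TOR, by -1.71 ± 0.26 (SE, adjusted p = 0.0009). PHGDH (ENSDARG00000001873), the entry enzyme of serine synthesis, was at 1.199, 1.24 and 1.81 and 2.01, 7.01 and 8.89 CPM (-2.08 ± 0.61 (SE, adjusted p = 0.023)), lost without 7 dpci replicates 1, 2 or 3 or HRAS DMSO replicates 2 or 3 (adjusted p up to 0.091 over all settings). Components and effectors of TOR were called in 4 higher and 1 lower of 21 cases, and library totals gave 0 higher and 2 lower, median 0.03. In the sterol and fatty acid list 5 of 26 were lower and 1 higher, and SCD (ENSDARG00000033662), the fatty acid desaturase, was at 0.479, 0.593 and 1.04 and 5.25, 5.94 and 6.02 CPM (-3.02 ± 0.67 (SE, adjusted p = 0.0058)).

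Stress lists held 10 lower and 2 higher of 32 unfolded protein response and heat shock genes, 7 and 2 of 32 lysosome genes, and 4 and 3 of 22 hypoxia genes. With a library left out, 4, 6, 8, 11, 6 and 7 of the first list and 3, 1, 0, 3, 1 and 2 of the second were lower. XBP1, a factor of the unfolded protein response, was lower in 7 dpci, at -1.19 ± 0.27 (SE, adjusted p = 0.0071). The hypoxia list had a median of 0.25 and shares near those of all genes (library totals gave 1 higher and 5 lower, median -0.08). NDRG1 (ENSDARG00000032849), induced by hypoxia, had 44.9, 49.3 and 41.6 CPM in 7 dpci and 96.2, 268 and 188 CPM in HRAS DMSO (-2.02 ± 0.43 (SE, adjusted p = 0.0046)). In the same list EPAS1 (ENSDARG00000057671), ADM (ENSDARG00000015263) and epoa were called higher. Their calls were lost in 3, 2 and 5 of 15 alternatives.

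Glucocorticoid, xenobiotic and clock genes were listed because HRAS fish had 4-OHT and DMSO and injured fish neither. Of 32 glucocorticoid and xenobiotic response genes, 11 were higher and 4 lower (9, 9, 10, 11, 9 and 8 and 2, 2, 3, 4, 2 and 3 with a library left out). The part of 4-OHT and DMSO in the differences of this list was not tested. The sulfotransferases, which conjugate steroids and foreign compounds, were low in HRAS DMSO and not in RFP DMSO. sult2st1 (ENSDARG00000033170) had 57, 32.3 and 52 CPM in 7 dpci, 2.01, 1.76 and 1.67 CPM in HRAS DMSO and 52.4, 73.1 and 56 CPM in RFP DMSO (4.69 ± 0.32 (SE, adjusted p = 5.5e-06)). sult2st3 (ENSDARG00000028367) had 32.6, 32.9 and 31.4, 2.56, 5.16 and 4.43 and 24.9, 65.7 and 21.8 CPM in the same order of groups (2.99 ± 0.74 (SE, adjusted p = 0.0099)). The antioxidant prdx1 (ENSDARG00000058734) was at 4.41, 4.1 and 4.27 and 13.3, 19.1 and 26.7 CPM (-2.21 ± 0.41 (SE, adjusted p = 0.0024)), with 0.914, 1.1 and 1.05 CPM in RFP DMSO. For KLF9 (ENSDARG00000068194) and FKBP5 (ENSDARG00000028396), glucocorticoid-induced genes, the RFP DMSO libraries were the highest, at 194, 487 and 413 and 657, 1085 and 533 CPM. KLF9 was at 1.68, 5.44 and 24.9 CPM in 7 dpci and 41.3, 9.91 and 7.38 CPM in HRAS DMSO and FKBP5 at 13, 34.1 and 264 and 381, 398 and 347 CPM, with 7 dpci replicate 3 above its group for both. Neither was called (-0.87 ± 1.07 (SE, adjusted p = 0.57) and -1.86 ± 1.02 (SE, adjusted p = 0.19)). Without 7 dpci replicate 3, FKBP5 was called at a log2 difference of -3.99 (adjusted p = 0.024). In contrast, tsc22d3 (ENSDARG00000075666) of the same list was higher in 7 dpci (1.43 ± 0.34 (SE, adjusted p = 0.0082)) and stayed called in every alternative. It had 13.9, 27.3 and 37.0 CPM in 7 dpci, 11.7, 7.70 and 9.57 CPM in HRAS DMSO and 15.7, 14.1 and 24.4 CPM in RFP DMSO. Of 27 clock genes 1 was higher and 2 lower, shares below those of all genes. PER1 was split by gene. PER1 (ENSDARG00000056885) was called lower, at -2.27 to -1.67 over the alternatives, and was lost in 3 of 15. PER2 was also called lower, at -0.85 to -0.37, and was lost in 6 of 15. PER1 (ENSDARG00000012499) (-0.50 ± 0.52 (SE, adjusted p = 0.5)) and both CRY1 genes (0.80 ± 0.37 and 0.53 ± 0.21) were not called.

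Levels in RFP DMSO were set beside each called difference, and often lay outside both groups. Of the 2192 genes higher in 7 dpci, RFP DMSO had a mean level nearer to 7 dpci for 1427 and nearer to HRAS DMSO for 765, measured on log2(CPM + 1). Of the 2541 lower genes, it was nearer to 7 dpci for 1822 and to HRAS DMSO for 719. It lay outside both groups for 1180 of the higher genes, 837 above and 343 below, and for 1522 of the lower genes, 350 above and 1172 below. Among matrix genes, 11 of the 12 higher genes were nearer to HRAS DMSO, and among ribosome biogenesis genes 14 of the 18 lower ones. RFP DMSO and HRAS DMSO share a table and an exposure that 7 dpci lacks, so these positions are descriptions.

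The other genes of the largest differences came from several groups. In the direction of 7 dpci they were NOS1 (ENSDARG00000068910), a nitric oxide synthase, at 14.2, 28.2 and 36.05 against 0.137, 1.47 and 2.07 CPM (4.39 ± 1.22 (SE, adjusted p = 0.018)), lost without HRAS DMSO replicate 2 (adjusted p up to 0.057 over all settings), cyp2ad2 (ENSDARG00000021172), a cytochrome P450 (4.49 ± 0.95 (SE, adjusted p = 0.0047)), olfm4l2 (4.30 ± 0.76 (SE, adjusted p = 0.0018)), and further globin genes, among them HBE1 (ENSDARG00000069734) (5.15 ± 0.59 (SE, adjusted p = 0.00023)) and hbaa2 (ENSDARG00000069735) (5.19 ± 0.79 (SE, adjusted p = 0.00088)). In the direction of HRAS DMSO, LRP1B (ENSDARG00000061517), a large receptor of the LDL receptor family, had 0.479, 0.269 and 0.547 CPM in 7 dpci and 6.21, 49.3 and 34.3 CPM in HRAS DMSO (-6.09 ± 1.15 (SE, adjusted p = 0.0026)). SLC9A5 (ENSDARG00000078560), a sodium-proton exchanger, had 0.0479, 0.269 and 0.164 and 2.97, 18.2 and 13 CPM (-6.12 ± 0.97 (SE, adjusted p = 0.001)), and SERPINI1 (ENSDARG00000034168), a protease inhibitor, 0.192, 0.269 and 0.383 and 0.685, 30.6 and 16.1 CPM (-5.79 ± 1.28 (SE, adjusted p = 0.0057)). jac2 (ENSDARG00000056166), jac7 (ENSDARG00000039100) and si:dkey-7i4.24 were lower, at -5.69 ± 0.98 (SE, adjusted p = 0.0016), -7.67 ± 1.33 (SE, adjusted p = 0.0017) and -6.16 ± 1.07 (SE, adjusted p = 0.0017). Replicate 1 of HRAS DMSO was the lowest of its group for LRP1B, SLC9A5, SERPINI1 and jac7. Levels of near-identical paralogues, which may share reads, are uncertain.

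Zebrafish genes that carry 1 symbol did not always move together. Of 869 pairs of tested genes that share a symbol, both genes were called in 110, in the same direction in 79 and in opposite directions in 31. Of all genes tested, 28.8% were called, 13.3% higher and 15.5% lower. Whether opposite pairs were more or fewer than among genes without a shared symbol was not tested. The pairs were looked for after the values had been seen. The pair NR2F6, nuclear receptors, had 24.3 ± 7.3 CPM in 7 dpci and 9.56 ± 1.58 CPM in HRAS DMSO for NR2F6 (ENSDARG00000003165) (SD, n = 3 in each), a log2 difference of 1.34 ± 0.31 (SE, adjusted p = 0.0075). The other gene, NR2F6 (ENSDARG00000003607), had 15.3 ± 0.163 and 35.082 ± 6.18 CPM (-1.201 ± 0.18 (SE, adjusted p = 0.00077)). NELL2 (ENSDARG00000090690) was at 4.5 ± 1.66 and 0.447 ± 0.259 CPM (3.31 ± 0.51 (SE, adjusted p = 0.00088)) and NELL2 (ENSDARG00000062797) at 0.902 ± 0.197 and 6.08 ± 2.69 CPM (-2.75 ± 0.63 (SE, adjusted p = 0.0073)). ABLIM1, which binds actin, had ABLIM1 (ENSDARG00000045064) higher by 1.38 ± 0.22 (SE, adjusted p = 0.001) and ABLIM1 (ENSDARG00000060149) lower, at -1.81 ± 0.42 (SE, adjusted p = 0.0076). These 3 pairs stayed opposite and called in every setting, while library totals kept 16 of the 31 and the fits with 1 library left out 8 to 22. KLHL29 had the widest gap, 3.68 ± 0.65 against -4.10 ± 0.80, but its lower gene was near the floor. That gene, KLHL29 (ENSDARG00000043799), was at 0.0479, 0.0539 and 0.0547 CPM in 7 dpci and 0.365, 0.942 and 1.67 CPM in HRAS DMSO. Reads that such genes share cannot be told apart here.

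**Figure D4:**
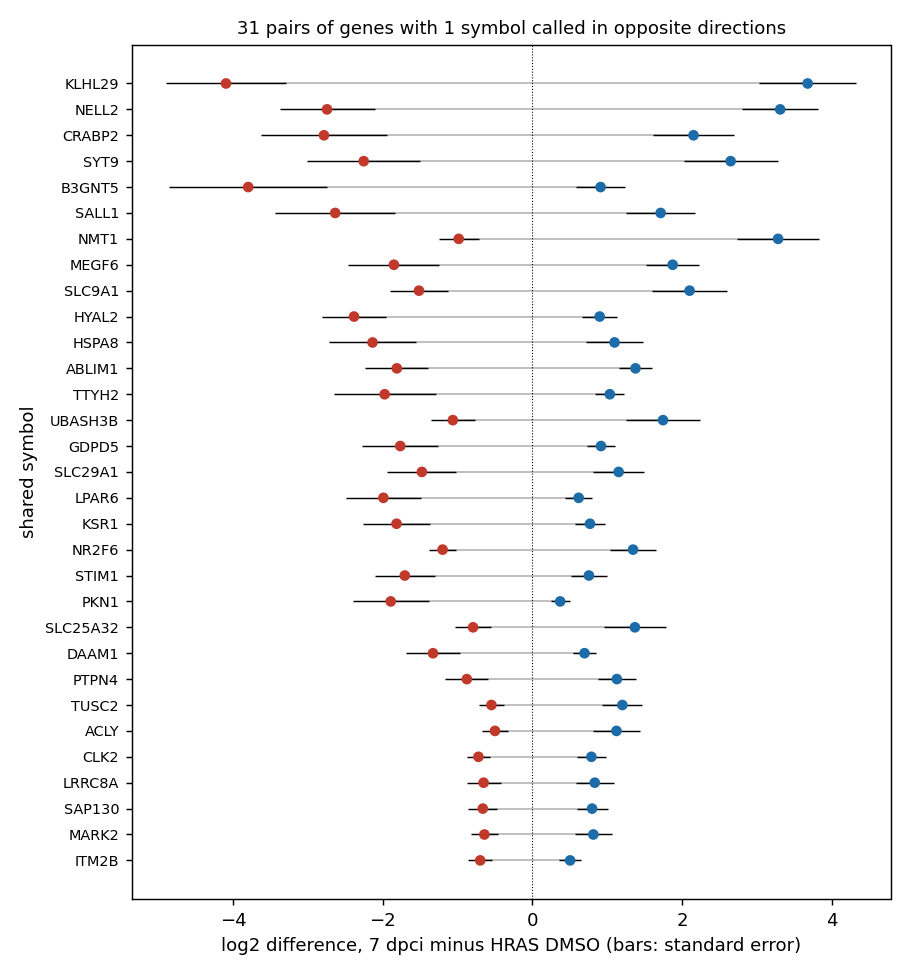
Log2 differences (7 dpci minus HRAS DMSO, x axis) of the 31 pairs of genes that share a symbol (y axis) and were called in opposite directions, with bars for the standard error. Blue points were higher and red points lower in 7 dpci. KLHL29 at the top had the widest gap, and its lower gene had a mean of 0.0522 CPM in 7 dpci, near the floor.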

How the data were processed

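Messenger RNA of zebrafish ventricles was sequenced with the CORALL mRNA kit, which adds molecular identifiers, after QIAzol and micro column extraction with DNase, per the labels' protocols. HISAT2 2.1.0, UMI-tools 1.1.1, featureCounts 1.6.0 and genome build GRCz11 are named in the submitters' processing notes. Neither the annotation release nor the strand setting is given in the sources used here, so overlapping genes may share reads. The authors deposited whole-number counts per gene, not normalized, in 2 tables that were joined on 32520 identifiers, 29201 of which had a symbol.

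Counts of all 15 libraries in 5 groups were fitted together in R 4.3.3 with edgeR 4.0.16 (TMM factors, filterByExpr by group, glmQLFit, glmQLFTest), with no replicate block. The contrast was 7 dpci minus HRAS DMSO, with Benjamini-Hochberg adjustment over all genes tested, a threshold of 0.05 and no fold limit. The standard error is the absolute log2 difference divided by the square root of F. The fit was tested on simulated data. DESeq2 1.42.0 and other scalings, filters, blocks and sets of libraries were alternatives.

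The members and the 42 gene lists were chosen with earlier results of these data known. The listed symbols were matched exactly (428), by case (456), by family symbol (194) or by alias (19), while 59 found no gene and 3 found over 3 genes each. Named genes are the 10 largest called, non-overlapping differences in each direction with at least 10 CPM in the higher group, up to 3 called genes per direction and list, and a list of key genes. Named outside this rule, after their values were seen, were hrc, MYOD1, TNNI3K, tnni4a, MYBPC3, ldb3b, GATA5, TBX20, SDHA, NDUFS3, FABP3, PGAM2, ENO3, LDHB, slc2a3b, PYGM, anln, col6a1, COL6A2, COL1A1, PDGFRA, WT1, aplnra, aplnrb, c4b, c7a, ZAP70, il7r, foxp3a, marco, MRC1, cd74b, ciita, FOS, ATF3, WNT11, WNT5B, NOTCH1, MDK, BMP4, NOP58, ncl, ASNS, PSPH, XBP1, FKBP5 and tsc22d3, and the pairs of genes that share a symbol. Intervals and floors (3 counts) cover counting error only.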

Additional observations from a re-analysis of the deposited data

How the results depend on the processing

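Of 182 named genes that were called, 101 stayed called in all 15 alternatives, 81 were lost in at least 1 and 0 reversed. Of 27 named genes that were not called, 17 were called in at least 1 alternative. Scaling to library totals called 1290 genes higher in 7 dpci and 4617 lower, against 2192 and 2541, and of its 5907 calls 3831 were shared with the main ones. With 1 of the 6 libraries left out, calls ran from 2948 to 4296, against 4733 with all libraries. They ran from 1408 to 2290 higher and from 1445 to 2006 lower. The lowest total was without 7 dpci replicate 1, with 2873 of the main calls. The highest was without HRAS DMSO replicate 1, with 3688 of them. A group then had 1 library fewer. DESeq2 called 5624, including 4722 of the main calls, DESeq2 size factors in edgeR 4765, no filter on low counts 4107, the 6 libraries alone 6136 and the counts without mitochondrially encoded genes 4681. A fit without the HRAS rapamycin group, chosen after seeing the data, called 5372.

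The labels give both groups the replicate numbers 1, 2 and 3. Deviations from the group means of same-numbered libraries correlated at -0.0336, 0.025 and 0.0304, and not every library correlated best with its own number. These correlations over the tested genes gave no sign of pairing. They cannot exclude a factor that same-numbered libraries share in some genes. With the replicate number as a block 4176 genes were called, and with the block in the 6 libraries alone, chosen after seeing the data, 4966.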

Other observations

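Sulfur amino acid genes were outside the lists above and were picked out after their values were seen. CDO1 (ENSDARG00000099389), which oxidises cysteine, had 298, 263 and 242 CPM in 7 dpci, 48.6, 15.1 and 16.8 CPM in HRAS DMSO and 207, 332 and 265 CPM in RFP DMSO (3.32 ± 0.54 (SE, adjusted p = 0.0012)). CTH (ENSDARG00000032206), which makes cysteine, had 106, 85 and 78.1 CPM in 7 dpci, 12.5, 4.67 and 2.15 CPM in HRAS DMSO and 10.2, 10.8 and 11.418 CPM in RFP DMSO (3.80 ± 0.48 (SE, adjusted p = 0.00036)). The second gene of that symbol, CTH (ENSDARG00000074301), was not called (0.34 ± 0.25 (SE, adjusted p = 0.32)). Tubulin genes tubb5 and TUBA1A were lower in 7 dpci, at -2.22 ± 0.52 (SE, adjusted p = 0.0077) and -2.39 ± 0.53 (SE, adjusted p = 0.0058), with 23.7, 29.4 and 26.7 and 15.7, 16.1 and 14.6 CPM in 7 dpci, 55.7, 163 and 153 and 47.9, 121 and 73.5 CPM in HRAS DMSO and 1.24, 0.611 and 0.717 and 3, 1.16 and 1.38 CPM in RFP DMSO.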
